A study of Mus musculus with 15 samples.

Results

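The genes described here are 10 genes of paraxial mesoderm and of the somite clock: Meox1, Tcf15, Foxc1, Foxc2, Pax3, Ripply2, Dll1, Dll3, Hes7 and Lfng. They were taken by symbol from a table of 45232 genes, and all 10 had a mean normalized count of at least 10, the level that 16430 genes reached. RNA was measured in 15 single whole mouse embryos at embryonic day 7.5, extraembryonic tissue included. There were 6 embryos of the Apela knockout strain NEO-IN (numbered 1 to 6), 6 of the Apela knockout strain NEO-OUT (7 to 12) and 3 wild-type embryos (1 to 3). All carried a mixed C57Bl6 and CD-1 background, and staging by morphology was matched across the groups. Both parents of each knockout embryo were homozygous for the knockout, so knockout and wild-type embryos were not littermates. The labels give neither litter, sex nor batch, and do not say what NEO-IN and NEO-OUT stand for.

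Paraxial mesoderm is the tissue beside the neural tube that forms as cells leave the primitive streak, and it is later cut into somites, the blocks that give rise to vertebrae, skeletal muscle and dermis. The cutting is timed by the segmentation clock, in which Notch signalling and its own repressors rise and fall together in the unsegmented tissue. Apela encodes a small secreted peptide that binds the apelin receptor and is known for a role in early mesoderm.

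Recovered reads numbered 48.8 to 61.3 M per library, and 20427 to 21059 genes were detected. Apela, the targeted gene (chromosome 8, 65028417 to 65037336, GRCm38), had 5.83 to 25.9 normalized counts in NEO-IN embryos and 50.6 to 107 in NEO-OUT embryos, against 1082 to 2004 in wild-type embryos. Every knockout embryo therefore lay below every wild-type embryo for Apela. Y-linked genes summed to 7619 to 8722 normalized counts in NEO-IN 1, 2 and 3 and in NEO-OUT 9 and 12, and to at most 5.9 in the other embryos, which include all 3 wild-type embryos. The tissue was present: Tbx6 and Msgn1, transcription factors of the presomitic mesoderm, averaged 1877 ± 273 and 1675 ± 201 normalized counts in NEO-IN, 1836 ± 428 and 1761 ± 462 in NEO-OUT, and 2209 ± 64.4 and 1331 ± 338 in wild-type (SD, n = 6, 6 and 3). Markers of later somite derivatives were nearly absent: Myf5 of the myotome reached at most 2.35 normalized counts in NEO-IN, 4.11 in NEO-OUT and 2.08 in wild-type, and Pax1 of the sclerotome at most 7.93, 9.36 and 3.73.

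Per kilobase of exon, the members spanned a wide range of levels. Averaged over all 15 embryos, Dll1 came first with 628 ± 66.7 normalized counts per kilobase (SD). It was followed by Dll3 (438 ± 97.4), Meox1 (435 ± 252), Foxc2 (366 ± 63.3), Lfng (321 ± 57.8), Tcf15 (210 ± 56.9), Hes7 (187 ± 80.2), Foxc1 (126 ± 26.8), Ripply2 (40.9 ± 26.1) and Pax3 (11.4 ± 3.38), all in normalized counts per kilobase. Dll1 exceeded Dll3 in 15 of 15 embryos, and Foxc1 exceeded Ripply2 in 15 of 15. The order of Dll3 and Meox1 was not fixed, since Dll3 was the higher of the pair in 7 embryos; Meox1 exceeded Foxc2, and Tcf15 exceeded Hes7, in 9 embryos each. The order also depended on the group: Dll1 had the highest mean in each, but Meox1 came next in NEO-IN (607, above Dll3 at 372), whereas in NEO-OUT it was 258, below Dll3, Foxc2 and Lfng at 488, 375 and 297. In wild-type Meox1 was 446, between Dll3 (468) and Foxc2 (438).

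Against wild-type, the members were not lower as a block. Tcf15 and Foxc1, transcription factors of the forming somite, were lower in NEO-OUT embryos, whereas the Notch ligand Dll1 differed by at most 0.05 on the log2 scale in either strain. In NEO-IN versus wild-type limma and edgeR called no member, and DESeq2 called Foxc2 lower. Compared directly by limma, the strains differed in 4 members: Meox1, Tcf15 and Foxc1 were higher in NEO-IN than in NEO-OUT, and Ripply2 was lower; edgeR and DESeq2 did not call Meox1. In whole embryos, fewer cells of a type and less RNA per cell cannot be told apart.

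**Figure D1:**
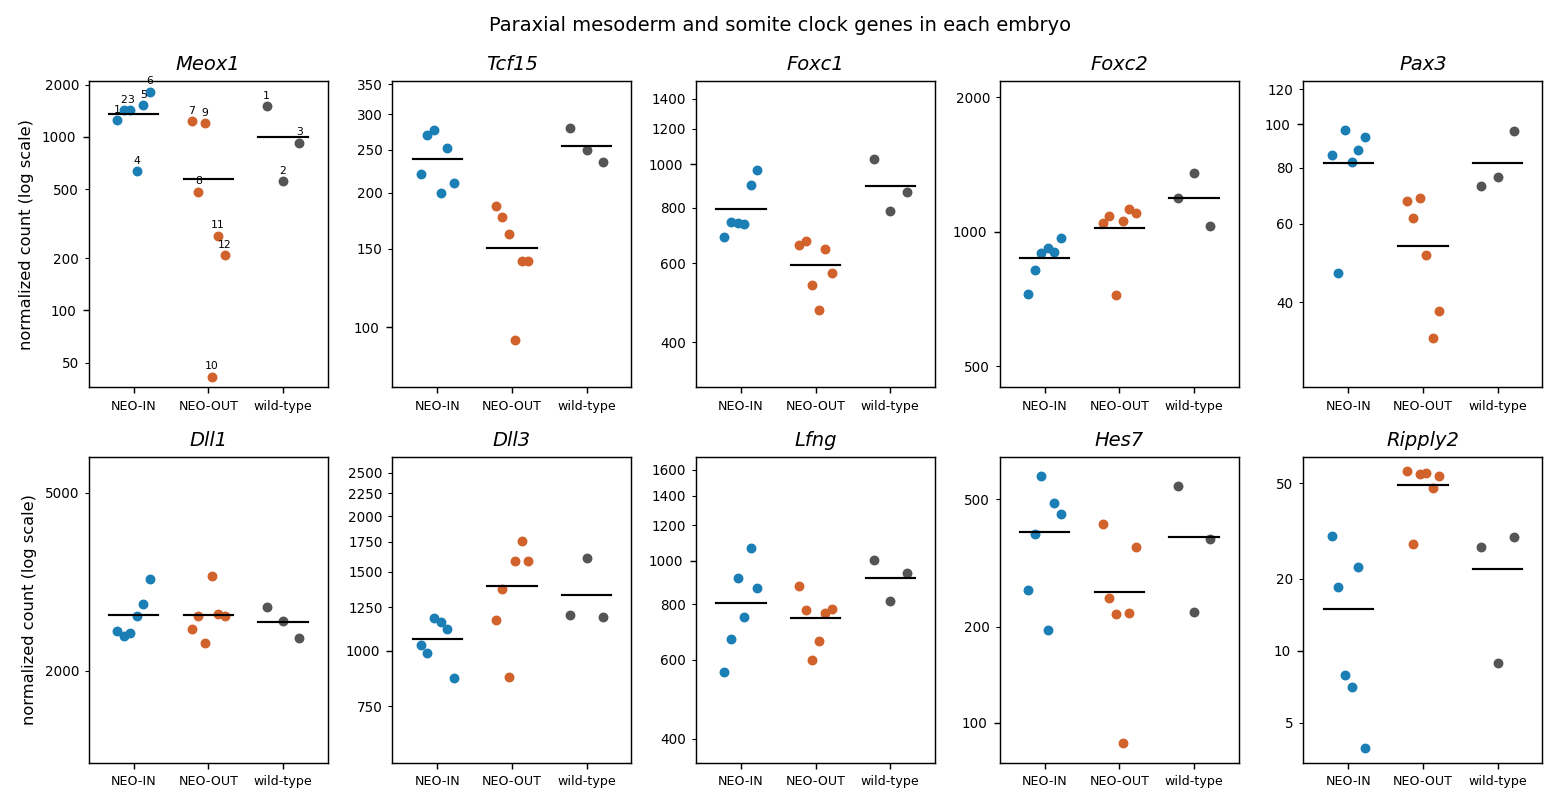
Normalized counts of the 10 members in each embryo (log axes that differ between panels); points run left to right in embryo number, numbers in the Meox1 panel are embryo numbers, and lines are group means. All 6 NEO-OUT points of Tcf15 (93.8 to 187) and Foxc1 (473 to 675) lie below the wild-type points (235 to 279 and 788 to 1030). Such a separation was found for 6.74% of all genes.

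Counts of calls use limma-trend on log2(normalized count + 1), with Benjamini-Hochberg adjusted p under 0.05 over all 16430 genes. In NEO-OUT versus wild-type, 2 of 10 members were called, both lower, where 6.35% of all genes were called and 3.01% were called lower. The median log2 fold change was -0.45 over the members and 0 over all genes. Several of the further lists described below had similar or smaller negative medians there. These were -0.43 for decidua, -0.4 for Hox genes, -0.38 for somite derivatives, -0.29 for cardiac and head mesoderm and -0.25 for neural genes. Trophoblast (0.29) and visceral endoderm (0.16) had positive medians, and the remaining lists lay between -0.16 and -0.04. In NEO-IN versus wild-type, limma called 0 of 10 members, where 2.98% of all genes were called; the median was -0.14, and 1 member had an unadjusted p under 0.05. DESeq2 called 1 member there, Foxc2 (adjusted p = 0.0102), and edgeR's quasi-likelihood test called 0. For the mean of both strains (Apela KO versus wild-type), limma again called 0 of 10 members, where 2.83% of all genes were called, with 3 members at an unadjusted p under 0.05 and a median of -0.32. DESeq2 called 1 there, Foxc1 (adjusted p = 0.0294), and edgeR 0. In NEO-IN versus NEO-OUT, 4 of 10 members were called, where 13.3% of all genes were called (6.52% lower and 6.74% higher in NEO-IN). There edgeR called 3 members (Tcf15, Foxc1 and Ripply2), and DESeq2 called 5, these 3 with Pax3 and Dll3 and without Meox1. Both strains are set against the same 3 wild-type embryos, so their fold changes are not independent of each other.

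**Figure D2:**
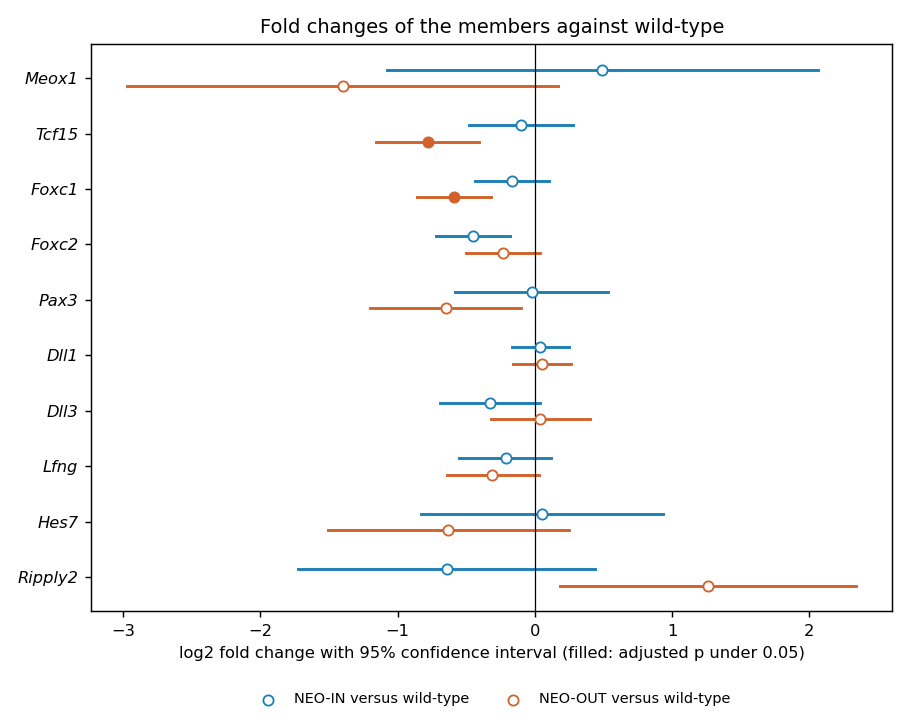
Log2 fold change of each member against wild-type with its 95% confidence interval, for NEO-IN above NEO-OUT in each pair; filled points have a limma adjusted p under 0.05. The filled points are Tcf15 (-0.78) and Foxc1 (-0.59) in NEO-OUT, and the Meox1 and Ripply2 intervals are the widest.

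Of the transcription factors of the forming somite, Tcf15 is a bHLH factor needed for somites to become epithelial (ENSMUSG00000068079.5, chromosome 2, 152143561 to 152149097, GRCm38, plus strand). Its normalized counts ran from 200 to 276 in NEO-IN (median 236) and from 93.8 to 187 in NEO-OUT (median 151), against 279, 249 and 235 in wild-type embryos 1 to 3. The means were 238 ± 31.9 in NEO-IN, 150 ± 33.3 in NEO-OUT and 254 ± 22.3 in wild-type (SD, n = 6, 6 and 3). Every NEO-OUT embryo was below every wild-type embryo (as for 6.74% of all genes) and below every NEO-IN embryo (2.86% of all genes), while NEO-IN and wild-type overlapped. In NEO-OUT versus wild-type, Tcf15 was 1.72-fold lower (-0.78 on the log2 scale, SE 0.18, limma adjusted p = 0.0161). That call was lost without wild-type embryo 1 (limma adjusted p = 0.083) or 2 (0.0599), and the value remained between -0.85 and -0.66 when any single embryo was left out. In NEO-IN versus wild-type the log2 fold change was -0.10 (95% interval -0.48 to 0.28, limma adjusted p = 0.811). The direct comparison of NEO-IN with NEO-OUT gave 0.68 (SE 0.15, limma adjusted p = 0.00558), and the call held with any single embryo left out.

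Foxc1 and Foxc2 are forkhead factors that are jointly needed for somites in the mouse. Foxc1 (ENSMUSG00000050295.3, chromosome 13, 31806633 to 31812476, plus strand) ran from 688 to 971 normalized counts in NEO-IN (median 742) and from 473 to 675 in NEO-OUT (median 609), against 1030, 788 and 865 in wild-type. Foxc1 averaged 796 ± 112 in NEO-IN, 594 ± 80.2 in NEO-OUT and 894 ± 124 in wild-type (SD, n as above). NEO-OUT lay wholly below both other groups (as for 6.74% of all genes against wild-type and 2.86% against NEO-IN). Foxc1 was 1.51-fold lower in NEO-OUT than in wild-type (-0.59 on the log2 scale, SE 0.13, limma adjusted p = 0.0118), a call lost without wild-type embryo 1 (limma adjusted p = 0.0828). NEO-IN versus NEO-OUT gave 0.42 (SE 0.10, limma adjusted p = 0.0132).

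Foxc2 (ENSMUSG00000046714.7, chromosome 8, 121116171 to 121118895, plus strand) lies on the chromosome that carries Apela. It ran from 725 to 971 normalized counts in NEO-IN (median 900) and from 721 to 1125 in NEO-OUT (median 1069), against 1193, 1356 and 1030 in wild-type. Every NEO-IN embryo was below every wild-type embryo, as was also the case for 5.39% of all genes. The log2 fold change in NEO-IN versus wild-type was -0.45 (SE 0.13), with a limma adjusted p of 0.0668 that missed the threshold. It passed when NEO-OUT embryo 9, the lowest NEO-OUT embryo at 721, was left out of the shared fit (limma adjusted p = 0.0119), and with DESeq2, with array weights (0.0239) or with NEO-IN and wild-type fitted alone (0.0458). The NEO-IN result stayed uncalled in 14 of 15 fits with a single embryo left out and in 12 of 16 other alternatives. In NEO-OUT versus wild-type the log2 fold change was -0.23 (95% interval -0.50 to 0.04). The strains themselves differed by -0.22 in Foxc2 (95% interval -0.44 to 0, limma adjusted p = 0.181). Neither edgeR (adjusted p = 0.15) nor DESeq2 (0.115) called it. Limma called it without NEO-OUT embryo 9 (-0.32, SE 0.08, adjusted p = 0.0134). Without NEO-OUT embryos 10 to 12 the strain difference in Foxc2 was -0.11 (limma adjusted p = 0.72).

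Meox1, a homeobox gene of the somites (ENSMUSG00000001493.9, chromosome 11, 101877510 to 101894374, minus strand), had the widest within-group spread of the members when pooled over the groups. The NEO-IN embryos 1 to 6 had 1254, 1430, 1432, 639, 1533 and 1827 normalized counts. The NEO-OUT embryos 7 to 12 had 1237, 485, 1202, 41.6, 270 and 209, against 1503, 554 and 927 in wild-type. NEO-OUT thus held embryos at the wild-type level (7 and 9) beside embryos far below it (10, 11 and 12). Embryo 8, at 485, was also below the lowest wild-type embryo (554), and wild-type itself spanned 2.71-fold. The pooled within-group SD of Meox1 was 1.26 on the log2 scale, higher than in 99.0% of all genes tested. It was 1.82 in NEO-OUT, 0.53 in NEO-IN and 0.72 in wild-type. Ripply2 varied more than Meox1 in NEO-IN (1.04) and wild-type (0.91), as did Hes7 in NEO-IN (0.6). In NEO-OUT versus wild-type the log2 fold change was -1.40 (95% interval -2.97 to 0.17, limma adjusted p = 0.276), and without embryos 10 to 12, a set of embryos chosen after the values were seen, it was -0.03.

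NEO-IN versus NEO-OUT gave a log2 fold change of 1.89 for Meox1 (SE 0.61, limma adjusted p = 0.048). Leaving out single embryos ended that call in 12 of 15 fits, wild-type embryos included, with limma adjusted p between 0.0187 and 0.0972 over the 15. It was also not called by edgeR (1.23, adjusted p = 0.128) or DESeq2 (1.24, adjusted p = 0.16).

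Pax3, a paired-box factor of the dermomyotome, the dorsal neural tube and the neural crest (ENSMUSG00000004872.12, chromosome 1, 78101267 to 78197134, minus strand), was the lowest member per kilobase. It ran from 46.6 to 97.1 normalized counts in NEO-IN (median 86.6) and from 33.3 to 68.5 in NEO-OUT (median 56.4), against 72.7, 76.2 and 96.9 in wild-type. Every NEO-OUT embryo was below every wild-type embryo, as for 6.74% of all genes. The log2 fold change in NEO-OUT versus wild-type, -0.65 (SE 0.26, limma adjusted p = 0.149), was not called. In NEO-IN versus NEO-OUT it was 0.63 (SE 0.21, limma adjusted p = 0.0627), and was called without NEO-IN embryo 2 (0.78, limma adjusted p = 0.0173), the embryo with 46.6. It was also called without NEO-OUT embryo 7 (0.0487) or 9 (0.043). With all embryos kept, DESeq2 (0.62, adjusted p = 0.0331) and limma with array weights (0.75, adjusted p = 0.0289) called it, and edgeR did not (adjusted p = 0.0583). Limma did not call it with the Hox score described below as a covariate (0.52, adjusted p = 0.216). Without NEO-OUT embryos 10 to 12 the Pax3 difference was 0.28 (limma adjusted p = 0.538).

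Ripply2 is a corepressor that ends Tbx6 activity where the next segment boundary forms (ENSMUSG00000047897.7, chromosome 9, 87015537 to 87019917, plus strand). Its counts were low, and differed in the opposite direction to Tcf15 and Foxc1. NEO-IN embryos 1 to 6 had 30.1, 18.5, 7.93, 7.06, 22.4 and 3.91 normalized counts. NEO-OUT embryos 7 to 12 had 56.2, 27.8, 54.8, 55.4, 48.0 and 53.5, against 27.0, 8.91 and 29.8 in wild-type. Ripply2 thus averaged 15.0 ± 10.3 in NEO-IN, 49.3 ± 10.9 in NEO-OUT and 21.9 ± 11.3 in wild-type (SD). In 5 of 6 NEO-OUT embryos Ripply2 was above every wild-type and every NEO-IN embryo, the exception being embryo 8. NEO-IN was 3.75-fold lower than NEO-OUT (-1.90 on the log2 scale, SE 0.42, limma adjusted p = 0.00673), and the call held with any single embryo left out (limma adjusted p from 0.00299 to 0.0162). Against wild-type, neither strain was called: the log2 fold change was -0.64 in NEO-IN (95% interval -1.73 to 0.44, limma adjusted p = 0.545) and 1.26 in NEO-OUT (95% interval 0.18 to 2.34, limma adjusted p = 0.152). At such low counts the size of the change depended on the method. Between the strains, edgeR gave -1.7 (adjusted p = 0.00885) and DESeq2 -1.71 (adjusted p = 0.000498). Over all alternatives other than single embryos left out, the log2 difference ran from -1.99 to -1.33.

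The promoters of Ripply2 and Foxc1 are shown because these genes differed between the strains in opposite directions. Each sequence runs from 250 bases before to 50 bases after the start of the gene on the plus strand (RefSeq, GRCm38.p6); 6 of the 10 members had an entry. Capitals mark matches on either strand to TGGGAA, the core recognised by the Notch effector RBPJ, or to CACGNG, a box bound by Hes-type repressors. Foxc1 lies at chr13:31806396-31806695 and Ripply2 at chr9:87015287-87015586.
Foxc1: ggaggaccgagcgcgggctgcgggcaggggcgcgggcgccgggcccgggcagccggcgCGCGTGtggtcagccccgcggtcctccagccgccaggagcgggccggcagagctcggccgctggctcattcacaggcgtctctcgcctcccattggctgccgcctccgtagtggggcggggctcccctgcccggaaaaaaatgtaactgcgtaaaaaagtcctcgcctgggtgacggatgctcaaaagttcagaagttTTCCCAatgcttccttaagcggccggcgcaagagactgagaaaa
Ripply2: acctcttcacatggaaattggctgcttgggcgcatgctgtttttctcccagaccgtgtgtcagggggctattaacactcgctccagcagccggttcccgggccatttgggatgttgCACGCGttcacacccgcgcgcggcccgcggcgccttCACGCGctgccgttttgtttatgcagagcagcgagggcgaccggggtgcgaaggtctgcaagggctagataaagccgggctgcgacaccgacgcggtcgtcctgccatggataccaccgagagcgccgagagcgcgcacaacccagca
Foxc1 holds 1 match to each motif, and Ripply2 holds 2 matches to CACGNG and none to TGGGAA in this window.

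The Notch ligands came next in role. Dll1, the activating ligand of the presomitic mesoderm (ENSMUSG00000014773.10, chromosome 17, 15367354 to 15376872, minus strand), ran from 2398 to 3211 normalized counts in NEO-IN (median 2555) and from 2306 to 3252 in NEO-OUT (median 2654), against 2785, 2583 and 2364 in wild-type. The groups overlapped throughout. Its log2 fold change was 0.04 in NEO-IN (95% interval -0.17 to 0.25) and 0.05 in NEO-OUT (95% interval -0.16 to 0.26) versus wild-type, and -0.01 between NEO-IN and NEO-OUT (95% interval -0.18 to 0.17). Dll1 thus had the narrowest intervals of the 10 members, which exclude changes of about the size seen for Tcf15.

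Dll3, a divergent ligand that dampens Notch signalling within the cell (ENSMUSG00000003436.11, chromosome 7, 28293553 to 28302238, minus strand), ran from 867 to 1185 normalized counts in NEO-IN (median 1075) and from 875 to 1757 in NEO-OUT (median 1480), against 1201, 1614 and 1190 in wild-type. Every NEO-IN embryo was below every wild-type embryo (as for 5.39% of all genes), though the nearest pair, 1185 and 1190, lay close together. The log2 fold change was -0.33 in NEO-IN versus wild-type (SE 0.17, limma adjusted p = 0.332) and 0.04 in NEO-OUT versus wild-type (SE 0.17, limma adjusted p = 0.923). NEO-IN versus NEO-OUT gave -0.36 (SE 0.14, limma adjusted p = 0.0982), and was called without NEO-OUT embryo 9 (-0.49, limma adjusted p = 0.00821). With all embryos kept, DESeq2 (-0.39, adjusted p = 0.0237) and limma with array weights (-0.46, adjusted p = 0.0236) called it, and edgeR did not (adjusted p = 0.069). Limma did not call it with the Hox score described below as a covariate (-0.2, adjusted p = 0.445). Without NEO-OUT embryos 10 to 12 the Dll3 difference was -0.09 (limma adjusted p = 0.793).

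The clock genes downstream of Notch, Hes7 and Lfng, were not called in any comparison. Hes7, the bHLH repressor at the core of the oscillator (ENSMUSG00000023781.2, chromosome 11, 69120404 to 69124055, plus strand), ran from 195 to 591 normalized counts in NEO-IN (median 420) and from 86.3 to 420 in NEO-OUT (median 233), against 550, 222 and 376 in wild-type. It spanned 3.02-fold among NEO-IN embryos, 4.87-fold among NEO-OUT embryos and 2.48-fold among the 3 wild-type embryos, and its within-group SD (0.69, log2) was higher than in 94.6% of all genes. The log2 fold change was 0.05 in NEO-IN (95% interval -0.83 to 0.93) and -0.63 in NEO-OUT (95% interval -1.51 to 0.25) versus wild-type, so changes above 1 on the log2 scale were not excluded in NEO-OUT.

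Lfng, the glycosyltransferase that modifies the Notch receptor (ENSMUSG00000029570.2, chromosome 5, 140607320 to 140615545, plus strand), ran from 564 to 1071 normalized counts in NEO-IN (median 809) and from 601 to 877 in NEO-OUT (median 771), against 1004, 812 and 937 in wild-type. Of the NEO-OUT embryos, 5 of 6 were below every wild-type embryo. The log2 fold change was -0.21 in NEO-IN (95% interval -0.55 to 0.12, limma adjusted p = 0.521) and -0.31 in NEO-OUT (95% interval -0.64 to 0.03, limma adjusted p = 0.263) versus wild-type.

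The promoters of Hes7 and Lfng are shown as those of the clock genes that are Notch targets, and these genes also varied together across embryos. They lie at chr11:69120203-69120502 and chr5:140607091-140607390, with the same capitals.
Hes7: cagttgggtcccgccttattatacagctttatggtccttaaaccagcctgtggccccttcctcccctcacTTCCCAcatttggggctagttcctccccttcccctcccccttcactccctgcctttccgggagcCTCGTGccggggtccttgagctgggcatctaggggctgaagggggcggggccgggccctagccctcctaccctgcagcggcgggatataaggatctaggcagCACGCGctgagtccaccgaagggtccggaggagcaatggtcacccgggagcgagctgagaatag
Lfng: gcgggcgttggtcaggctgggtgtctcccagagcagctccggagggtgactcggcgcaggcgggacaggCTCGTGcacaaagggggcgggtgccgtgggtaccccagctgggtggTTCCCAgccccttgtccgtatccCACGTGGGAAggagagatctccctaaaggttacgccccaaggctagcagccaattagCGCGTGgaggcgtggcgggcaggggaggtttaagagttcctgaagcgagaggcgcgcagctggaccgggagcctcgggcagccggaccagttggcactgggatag
Hes7 holds 1 match to TGGGAA and 2 to CACGNG. Lfng holds 2 matches to TGGGAA and 3 to CACGNG. The CACGNG match that begins 112 bases before the gene start overlaps the TGGGAA match that begins 108 bases before it. TGGGAA was found in 3 of the 6 members with an entry (Foxc1, Hes7 and Lfng) and in 25.6% of 32851 mouse promoters of the same length. CACGNG was found in 5 of the 6 (all but Dll3) and in 27.5% of the promoters. AGGTGT, the T-box half-site that Tbx6-type factors recognise, was found in none of the 6 and in 13.7% of the promoters. These matches describe letters in a window and not sites in use.

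Embryo by embryo, no knockout embryo was low for all members. In NEO-OUT embryo 10, Meox1, Tcf15, Foxc1 and Hes7 were the lowest of all 15 embryos while Dll1 was the highest. NEO-OUT 9 was lowest for Foxc2 and Dll1, NEO-OUT 11 was lowest for Pax3 and highest for Dll3, and NEO-IN 6 was lowest for Ripply2 and Dll3 and highest for Meox1. The number of members below the wild-type mean was between 3 and 8 in NEO-IN embryos and 7 or 8 in NEO-OUT embryos, against 2, 7 and 5 in wild-type embryos 1 to 3.

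**Figure D3:**
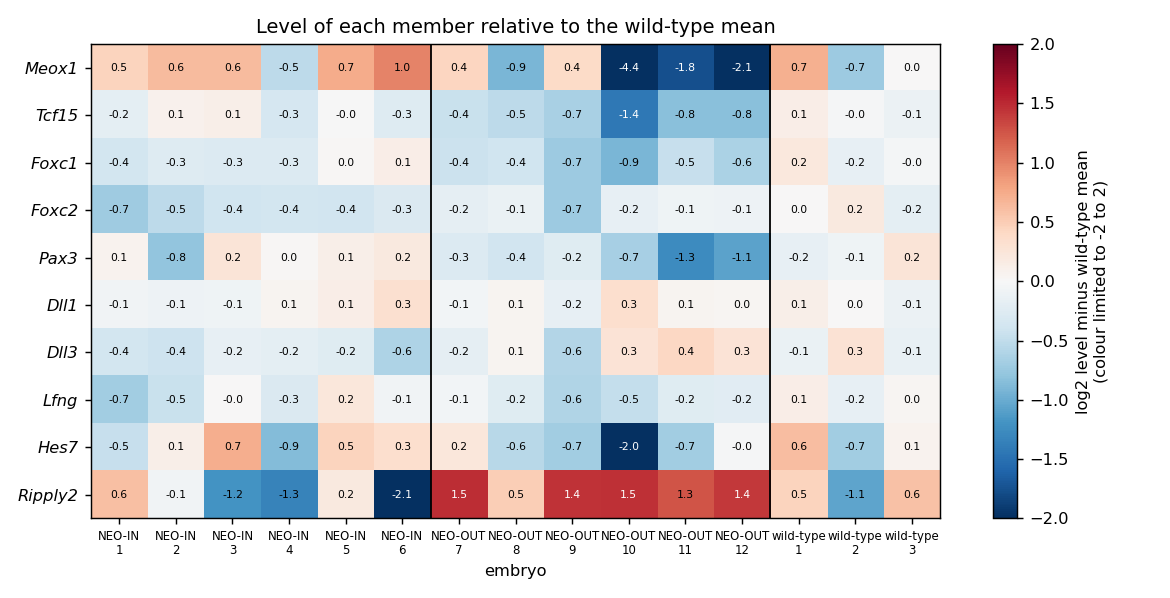
Log2 level of each member in each embryo minus the wild-type mean, with NEO-IN, NEO-OUT and wild-type embryos from left to right. Within the Meox1 row the darkest blue is in NEO-OUT 10 to 12. Hes7 in NEO-OUT 10 (-2.04) and Ripply2 in NEO-IN 6 (-2.06) are also dark blue. Tcf15 and Foxc1 are blue in all 6 NEO-OUT embryos, and Ripply2 is red in the NEO-OUT embryos.

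Across the 15 embryos the members fell into sets that varied together, described here by Spearman's rho with no test, since all points share library, stage and tissue make-up and the groups differ. Meox1, Tcf15, Foxc1 and Hes7 varied together, with rho from 0.67 to 0.84 between them. Tcf15 and Foxc1 had the highest rho of these (0.84, and 0.80 without NEO-OUT 10), but their Pearson's r of 0.82 was 0.48 once the group means were removed. Hes7 and Lfng had a rho of 0.75 (0.73 without NEO-OUT 10) and Meox1 and Hes7 one of 0.79 (0.74). Foxc2 followed Dll3 (rho 0.84, and 0.83 without NEO-OUT 10) rather than its paralogue Foxc1 (0.05). Meox1 ran against Dll3 (-0.72), and Foxc1 against Ripply2 (-0.73). After the group means were removed, Pearson's r was 0.84 for Meox1 and Tcf15, 0.70 for Foxc2 and Dll3 and -0.72 for Meox1 and Dll3, but -0.21 for Foxc1 and Ripply2, whose relation therefore rested on the group means.

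**Figure D4:**
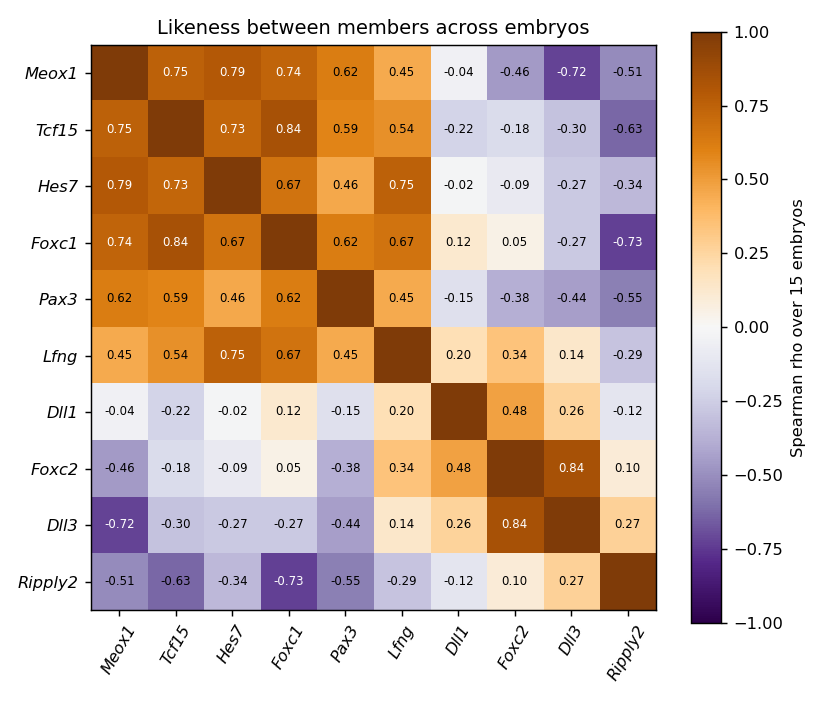
Spearman's rho between members over the 15 embryos, as a description without a test. Meox1, Tcf15, Hes7, Foxc1, Pax3 and Lfng form an orange block with rho from 0.45 to 0.84, and Foxc2 with Dll3 (0.84) stands apart from it. The place of Pax3 in the block rested largely on the group means. Once these were removed, its Pearson's r was 0.36 with Meox1, 0.12 with Tcf15, 0.08 with Hes7, 0.09 with Foxc1 and 0.18 with Lfng.

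The genes most like each member across the 15 embryos, by Spearman's rho over protein-coding genes tested, were Lmx1b (0.96) and Sez6 (0.95) for Meox1, and Ephb4 (0.93) and Ppdpf (0.92) for Tcf15. For Foxc1 they were Pknox2 (0.95) and Efnb3 (0.93), and for Foxc2 they were Loxl2 and Atp1b2 (0.92 each). Pax3 was most like Hoxc5 and She (0.87 each), Ripply2 most like Nckap1 (0.93) and Gltpd2 (0.90), and Dll1 most like Sparc (0.84) and Zcchc8 (0.83). Dll3 was closest to Ndrg2 (0.92) and Prr18 (0.91), Hes7 to Nab2 and Pnkd (0.93 each), and Lfng to Nacc1 (0.94) and Prcc (0.92).

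The low values in NEO-OUT embryo 10 went along with low Hox RNA. Hox genes, whose activation follows the stage of the embryo, were summarised as the mean log2 level over 12 Hox genes, centred on all libraries. That score was -1.10 in NEO-OUT 10 and -0.28 to 0.36 in the other 14 embryos; the summed Hox normalized counts ran from 9430 to 12623 in NEO-IN and from 4614 (embryo 10) to 10531 in NEO-OUT, against 9931 to 11676 in wild-type. Of the 12, limma called Hoxb1 and Hoxb2 lower in NEO-OUT embryos than in wild-type and none in NEO-IN embryos, where edgeR and DESeq2 also called none and 1 had an unadjusted p under 0.05. Spearman's rho with the Hox score over 15 embryos was 0.79 for Meox1, 0.72 for Foxc1 and for Hes7, 0.66 for Tcf15 and -0.56 for Dll3. For the other members it was 0.63 (Pax3), 0.58 (Lfng), -0.43 (Ripply2), -0.3 (Foxc2) and -0.23 (Dll1). Without NEO-OUT 10, rho was 0.75 for Meox1, 0.65 for Foxc1, 0.66 for Hes7, 0.58 for Tcf15 and -0.48 for Dll3. It was then 0.6 for Pax3, 0.54 for Lfng, -0.34 for Ripply2, -0.23 for Foxc2 and -0.05 for Dll1.

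**Figure D5:**
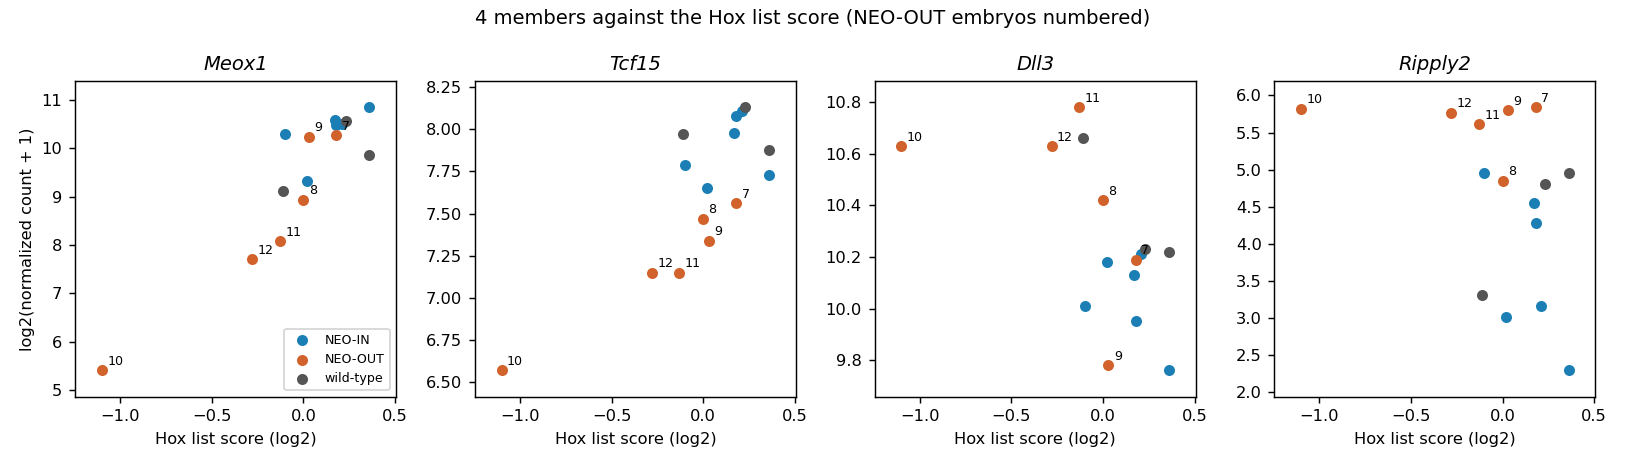
Log2(normalized count + 1) of Meox1, Tcf15, Dll3 and Ripply2 against the Hox list score (mean log2 level over 12 Hox genes, centred on all embryos), with NEO-OUT embryos numbered. NEO-OUT 10 lies far to the left at -1.10, with the lowest Meox1 and Tcf15 of all embryos, while its Ripply2 is among the highest.

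With the Hox score as a covariate, Foxc1 was still called lower in NEO-OUT versus wild-type (-0.44, limma adjusted p = 0.0451) and Tcf15 was not (-0.55, limma adjusted p = 0.0552). Meox1 in NEO-OUT versus wild-type was then -0.11. In NEO-IN versus NEO-OUT, Tcf15 (0.46, limma adjusted p = 0.034) and Ripply2 (-1.82, limma adjusted p = 0.0324) stayed called, while Foxc1 (0.27, limma adjusted p = 0.0919) and Meox1 (0.66, limma adjusted p = 0.229) did not. Without NEO-OUT 10 alone, Tcf15 and Foxc1 stayed called in NEO-OUT versus wild-type (-0.66 and -0.53, limma adjusted p = 0.0148 and 0.0205). Without NEO-OUT embryos 10 to 12, both missed the threshold in that comparison (Tcf15 -0.53, limma adjusted p = 0.0761; Foxc1 -0.52, limma adjusted p = 0.0693). In NEO-IN versus NEO-OUT, all 4 calls were then lost, at 0.52 for Meox1, 0.43 for Tcf15, 0.35 for Foxc1 and -1.79 for Ripply2 (limma adjusted p = 0.465, 0.0708, 0.124 and 0.09), in a fit with 3 fewer embryos.

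The other genes of segmentation were taken as 4 lists, to be read against the share of all genes called: 2.98% for NEO-IN and 6.35% for NEO-OUT, each set against wild-type, and 13.3% between the strains. Of 11 genes that specify the presomitic mesoderm, limma, edgeR and DESeq2 each called 0 in every comparison, with medians of -0.01 in NEO-IN and -0.14 in NEO-OUT versus wild-type. At an unadjusted p under 0.05 there were 0 against wild-type in either strain and 1 between the strains. Tbx6 had log2 fold changes of -0.25 and -0.31, and Msgn1 of 0.35 and 0.38, in NEO-IN and NEO-OUT versus wild-type (limma adjusted p between 0.304 and 0.481). Of 19 Notch receptors, other ligands, machinery and targets, 2 receptors were lower in NEO-OUT versus wild-type: Notch1 (-0.38, SE 0.09, limma adjusted p = 0.0205) and Notch3 (-0.38, SE 0.07, limma adjusted p = 0.00717). In NEO-IN versus wild-type limma, edgeR and DESeq2 each called 0 of the 19 (4 at an unadjusted p under 0.05). For Apela KO versus wild-type, Notch3 was called lower (-0.28, SE 0.07, limma adjusted p = 0.0364), where edgeR called 1 and DESeq2 3 of the 19. Notch3 was higher in NEO-IN than in NEO-OUT (0.20, SE 0.06, limma adjusted p = 0.0418). The median over the 19 was -0.07 in NEO-IN and -0.04 in NEO-OUT versus wild-type.

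Of 11 Wnt and FGF response genes that cycle with the clock, limma, edgeR and DESeq2 each called 0 against wild-type in either strain (3 in NEO-IN and 2 in NEO-OUT at an unadjusted p under 0.05), with medians of -0.07 in NEO-IN and -0.16 in NEO-OUT. The Wnt targets Axin2 (0.18, SE 0.05, limma adjusted p = 0.0365) and Sp5 (0.29, SE 0.09, limma adjusted p = 0.036) were higher in NEO-IN than in NEO-OUT. Of 9 segment boundary and polarity genes, 8 were tested. Pcdh19, a protocadherin, was lower in NEO-OUT versus wild-type (-0.49, SE 0.12, limma adjusted p = 0.0205) and in Apela KO versus wild-type (-0.43, SE 0.11, limma adjusted p = 0.0394); in NEO-IN it was -0.37 (limma adjusted p = 0.1), and DESeq2 called 1 of the 8 genes there. Tbx18, a T-box gene of the anterior somite, was lower in NEO-IN embryos than in NEO-OUT embryos (-0.68, SE 0.22, limma adjusted p = 0.0445), a call that edgeR did not make. Mesp2, which acts upstream of Ripply2 at the boundary, had 96.4 ± 41.2 normalized counts in NEO-IN, 108 ± 35.0 in NEO-OUT and 135 ± 57.0 in wild-type (SD, n = 6, 6 and 3), and was not called. Of 10 genes of somite derivatives, 6 were tested; limma and edgeR called 0 against wild-type and DESeq2 called 1, Pax9 in NEO-OUT, with 1 (NEO-IN) and 2 (NEO-OUT) at an unadjusted p under 0.05. Pax9 of the sclerotome was higher in NEO-IN than in NEO-OUT (0.79, SE 0.21, limma adjusted p = 0.0213).

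Some markers of other tissues were also called. Their calls are to be read against the shares of all genes called. These were 2.98% for NEO-IN and 6.35% for NEO-OUT, each versus wild-type, and 13.3% between the strains. In the trophoblast list, 10 of 12 genes were tested; Tpbpa was at 0 in every NEO-OUT and wild-type embryo. Its summed normalized counts ran from 23031 to 31893 in NEO-IN and from 24184 to 33514 in NEO-OUT, against 22949 to 26030 in wild-type, and Rhox9 was called higher in NEO-IN versus wild-type. With a trophoblast score as a covariate, Tcf15 in NEO-OUT versus wild-type was not called (-0.67, limma adjusted p = 0.094), while Foxc1 was. The visceral endoderm list (10 of 10 tested, none at 0) summed to 506353 to 604467 in NEO-IN and 554701 to 671176 in NEO-OUT, against 559233 to 583170 in wild-type; Ttr and Apoa1 were higher in NEO-OUT versus wild-type, and Ttr, Apoa1, Hnf4a and Trf were lower in NEO-IN embryos than in NEO-OUT embryos. Its part in the results was not tested. Of 11 cardiac and head mesoderm genes, Tbx5 was lower and Gata4 higher in NEO-OUT versus wild-type; NEO-IN embryos had less Gata4 and Myl7 and more Mef2c than NEO-OUT embryos. Of 11 neural genes, Otx2 was lower in NEO-OUT versus wild-type, and Sox1, Otx2, Six3 and Hesx1 were higher in NEO-IN than in NEO-OUT. Of 6 decidual genes, Des was lower in NEO-OUT versus wild-type and Dcn was higher in NEO-IN than in NEO-OUT; the list summed to 758 to 1072 normalized counts in NEO-IN and 594 to 837 in NEO-OUT, against 869 to 1088 in wild-type, and its part was not tested.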

How the data were processed

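Polyadenylated RNA of 15 single embryos was made into stranded libraries, per the labels' protocols. The authors deposited a signal table in which the count of each gene is scaled by 1 factor per library, called normalized counts here. The tools in the submitters' processing notes are featureCounts, STAR, kallisto, Picard and DESeq2 (build mm10); the notes give no roles or versions and do not state the counting strand. Whole reads were recovered for 100.0% of values (within 0.01), giving deposited size factors of 0.8495 to 1.0735. Of recovered counts from 1 to 20, 76.9% to 79.1% were even, as would be seen if the mates of a pair were counted singly, and fragments may number fewer than reads. In 1 cell a stray letter was left out. GENCODE gave symbols for 98.6% of identifiers and coordinates on GRCm38 (mm10). Each embryo was 1 replicate; replicates of a group differed beyond counting noise, with chi-square over its degrees of freedom at 10.8 to 38.0.

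limma-trend (limma 3.58.1, R 4.3.3) was fitted on log2(normalized count + 1), pseudocount 1, over 16430 genes with a mean of at least 10 in 15 libraries and 3 groups; Benjamini-Hochberg adjusted p under 0.05 was called. Apela KO versus wild-type is the mean of both strain effects. The fit was tested on simulated data. Alternatives changed the pseudocount, filter, scaling, variance model, samples, covariates, blocks and libraries, and tested the recovered reads with edgeR 4.0.16 and DESeq2 1.42.0. The members and the 11 further lists were chosen with earlier results of these data known. Named genes are all members, Apela, list genes called in a strain comparison (or the 2 with the smallest p), and the 2 protein-coding genes most like each member; 1 such list gene is left out of the text. Genes overlapping members (Meox1, Foxc2, Dll1 and Hes7) had means under 3. The 3 wild-type embryos limit precision. Promoters came from RefSeq on GRCm38.p6. Figures used matplotlib 3.10.9 under Python 3.11.15.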

Additional observations from a re-analysis of the deposited data

Results flagged for a closer look

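Of 20 combinations of a member with a group of 6 embryos, 3 held an embryo far from the others, where chance gives about 1 in 20. Members varied together across the same embryos, so the combinations are not independent. Whether 3 exceeds chance was not tested. Foxc2 was 721 normalized counts in NEO-OUT embryo 9, with the nearest NEO-OUT embryo at 1049 (gap of 0.812 of the range). Pax3 was 46.6 in NEO-IN embryo 2, with the nearest at 82.4 (0.708). Ripply2 was 27.8 in NEO-OUT embryo 8, with the nearest at 48.0 (0.712).

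The effects of the 2 strains differed from each other, by the test of NEO-IN versus NEO-OUT, in 4 members. The log2 difference was 1.89 for Meox1 (limma adjusted p = 0.048), 0.68 for Tcf15 (limma adjusted p = 0.00558), 0.42 for Foxc1 (limma adjusted p = 0.0132) and -1.90 for Ripply2 (limma adjusted p = 0.00673). In 5 of 6 NEO-IN embryos Meox1 was above every NEO-OUT embryo, as were Tcf15 and Foxc1 in 6 of 6, and Ripply2 was below every NEO-OUT embryo in 5 of 6. For 2.86% of all genes, every NEO-IN embryo was above every NEO-OUT embryo.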

How the results depend on the processing

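A sign change counts as a reversal only where the value is called in either fit. Of 1186 member values under alternatives, 1138 kept their side of the threshold (45 of these, uncalled throughout, changed sign), 33 lost a call, 15 gained one and 0 reversed. With single embryos left out, members called ranged from 0 to 1 (NEO-IN versus wild-type), 0 to 2 (NEO-OUT versus wild-type), 0 to 0 (Apela KO versus wild-type) and 3 to 7 (NEO-IN versus NEO-OUT, 7 without NEO-OUT 9), and genes called from 206 to 600, 383 to 1224, 153 to 475 and 1673 to 2247. In NEO-OUT versus wild-type, members called fell to 0 without wild-type 1 and 1 without wild-type 2.

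Members called numbered 1 in NEO-IN versus wild-type with DESeq2, groups alone, array weights, or embryos 1 to 3 of both groups without a block. Genes called there were 929 with DESeq2, 800 with array weights, 101 with the trophoblast score, 310 with the Y-linked level and 237 with runs of 3 embryos as a random block, against 489. For NEO-OUT versus wild-type, members called were 1 with the trophoblast or Hox score and 0 without NEO-OUT 10 to 12; genes were 1634 with DESeq2, 1613 with array weights, 349 with the trophoblast score, 456 with the Hox score, 531 with the random block and 378 without NEO-OUT 10 to 12, against 1043. For Apela KO versus wild-type, DESeq2 called 1 member; genes were 899 with DESeq2, 865 with array weights, 79 with the trophoblast score, 304 with the Y-linked level and 188 with the random block, against 465. In NEO-IN versus NEO-OUT, members called were 2 with the Hox score and 0 without NEO-OUT 10 to 12; genes were 1228 with the Hox score, 1432 with the random block and 759 without NEO-OUT 10 to 12, against 2180. The 2 settings on embryos 1 to 3 without a block and on NEO-OUT 10 to 12 were chosen after seeing the data; fewer embryos enter both. The other causes were not tested.

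NEO-IN and wild-type embryos with the same number did not vary together (r of 0.05, 0.02 and 0), so the numbers do not pair them. With the replicate block on embryos 1 to 3, NEO-IN versus wild-type had 0 members and 487 genes called. Ripply2, at 3.91 to 56.2 normalized counts per embryo, is limited by depth.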
